A study of Mus musculus with 6 samples.

Results

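Amino acid transporters of the plasma membrane were examined in mouse CD4+ T cells before and after differentiation into T helper cells. The 9 transporter genes, *Slc7a5*, *Slc3a2*, *Slc1a5*, *Slc7a1*, *Slc7a6*, *Slc7a11*, *Slc38a1*, *Slc38a2* and *Slc1a4*, were taken by symbol from the 24223 genes counted in each library. All 9 passed the filter on low counts, as did 13607 genes in all. RNA-Seq was made from 3 cell types with 2 biological replicates each, so that there were 6 libraries. Naive cells were non-activated CD4+CD44- T cells, obtained with a CD4+CD62L+ isolation kit from pooled lymph nodes and spleens of C57BL/6 mice in their second month of life. Th17 and Th1 cells came from such naive cells that were activated with anti-CD3 and anti-CD28 in a medium with added glutamine and β-mercaptoethanol and collected on the fifth day. The Th17 culture held anti-IL-4, anti-IFN-γ, TGF-β, IL-6, IL-1β and IL-23, and the Th1 culture held anti-IL-4, IL-12 and IL-2. Activation, days in culture and cytokines therefore differ together between Naive cells and either T helper cell. No line, transgene or deletion was used.

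A T cell that leaves rest takes up large neutral amino acids, glutamine, arginine and cystine through carriers of the solute carrier families. *Slc7a5* encodes LAT1, which carries leucine and other large neutral amino acids, and needs the heavy chain CD98, the product of *Slc3a2*, to reach the membrane. The light chains encoded by *Slc7a6* (cationic and neutral amino acid exchange) and *Slc7a11* (cystine uptake against glutamate, which feeds glutathione synthesis) bind the same heavy chain. *Slc1a5* and *Slc1a4* encode sodium-dependent exchangers of neutral amino acids, *Slc38a1* and *Slc38a2* sodium-coupled carriers of glutamine, alanine and other small neutral amino acids, and *Slc7a1* the main carrier of arginine and lysine. Leucine that enters the cell is sensed by the kinase complex mTORC1. Cells short of amino acids induce the factor Atf4, which binds a short DNA element in the promoters of several transporter genes.

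Of these genes, *Slc7a11* changed most between cell types, and its promoter held that element at 2 places. The RefSeq promoter table (GRCm38.p6) had 8 promoters for 6 of the 9 genes, each from 250 bases before the start to 50 after it. It held none for *Slc7a5*, *Slc1a5* and *Slc38a1*, whose promoters were therefore not searched. The amino acid response element, searched as TGATGNAA on both strands, was in 2 of the 8 member promoters, those of *Slc7a11* and *Slc1a4*, and in 1304 of all 32851 promoters (3.97%). The E-box CACGTG, which Myc binds, was in none of the 8 and in 2349 of all promoters (7.15%). A match of letters is a description and not a binding site. Both promoters are shown from 250 bases before the annotated start to 10 bases of transcript, 5′ to 3′ on the gene's strand, with the matches in capitals, because these are the only members whose tabled promoter held a match, and *Slc7a11* is the gene on which the comparisons turn. The *Slc7a11* stretch is chr3:50443604-50443863 on the minus strand, and the *Slc1a4* stretch is chr11:20332704-20332963 on the minus strand.
Slc7a11: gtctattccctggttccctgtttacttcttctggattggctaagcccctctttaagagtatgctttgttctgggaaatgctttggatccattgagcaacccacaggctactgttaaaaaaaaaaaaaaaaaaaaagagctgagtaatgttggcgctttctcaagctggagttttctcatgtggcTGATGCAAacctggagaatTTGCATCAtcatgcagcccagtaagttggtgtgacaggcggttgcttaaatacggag
Slc1a4: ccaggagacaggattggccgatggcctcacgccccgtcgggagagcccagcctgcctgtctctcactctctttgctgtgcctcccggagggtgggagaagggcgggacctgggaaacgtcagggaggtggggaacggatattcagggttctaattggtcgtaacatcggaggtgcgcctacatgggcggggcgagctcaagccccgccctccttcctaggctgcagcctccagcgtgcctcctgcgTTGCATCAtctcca
The *Slc7a11* matches began 66 and 47 bases before the start site and lay on opposite strands, and the *Slc1a4* match began 4 bases before the start site and ran across it. The 2 genes had different patterns over the cell types, *Slc7a11* being highest in Th17 and *Slc1a4* lowest there.

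The libraries held between 17742158 and 69080017 counts, and replicate 1 was deeper than replicate 2 by 3.48 times in Naive, 3.38 times in Th17 and 3.77 times in Th1. Levels are given as counts per 1000000 (CPM) of the TMM-scaled library, and 3 counts, the smallest level read as detected, correspond to 0.0440 to 0.190 CPM. A gene was called when the Benjamini-Hochberg adjusted p of edgeR's quasi-likelihood test over all tested genes was under 0.01 and the absolute log2 fold change over 1, the thresholds of the study. In the following, ± is the SE of a fitted log2 fold change. All 7 T cell markers found in the files were above 10 CPM in each library. The summed Th17 markers were 1534 and 1963 CPM in the Th17 libraries and 27.9 to 51.2 in the other 4, and the summed Th1 markers were 1682 and 1234 CPM in the Th1 libraries and 98.7 to 479 in the other 4. The 8 markers of naive T cells did not separate the cell types (2959 to 5620 CPM summed). Neutrophil markers summed to 2895 and 2786 CPM in Th17, against 311 and 189 in Naive and 63.6 and 74.3 in Th1. Within that list, *S100a8*, *S100a9*, *Ngp*, *Ltf*, *Camp* and *Retnlg* were highest in both Th17 libraries. *Mpo* was higher in Naive (251 and 159 CPM) than in Th17 (68.1 and 58.7 CPM). *Elane* overlapped between Naive (57.3 and 29.6 CPM) and Th17 (52.5 and 46.9 CPM), and *Cxcr2* was highest in Th1 (36.2 and 34.9 CPM). Erythroid markers summed to 925 and 149 CPM in Naive and to at most 4.30 in the other 4 libraries. Of these 9 markers, the globin genes *Hba-a1*, *Hbb-bs* and *Hbb-bt* were at 0 CPM in each library, Naive included. *Car1* (463 and 85.8 CPM) and *Aqp1* (288 and 39.0 CPM) were the largest in Naive. In such bulk libraries, fewer cells of a type and less RNA per cell cannot be told apart.

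With Th17 compared with Naive, 1 of the 9 transporters was called higher (4.01% of all tested genes were) and 0 were called lower (1.43% of all tested genes). The called gene was *Slc7a11*, which passed the filter on low counts only because of its Th17 libraries. In 7 of the 9 the fitted change was downward, with a median over the 9 of -0.57 against -0.02 over all tested genes. The replicates of Th17 and Naive did not overlap for 8 of the 9, 2 higher and 6 lower in Th17, and such separation was also seen for 65.5% of all tested genes. At an unadjusted p under 0.05 there were 5 of the 9. The share of all tested genes at this limit was not computed, so the count has no background beside it.

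With Th1 compared with Naive, 0 of the 9 were called in either direction by edgeR, against 4.64% of all tested genes higher and 2.81% lower, and DESeq2 called 0 too. At an unadjusted p under 0.05 there were 2 of the 9, *Slc38a1* and *Slc38a2*, both with higher fitted values in Th1. For this limit too, the share of all tested genes was not computed. Replicates did not overlap for 3 of the 9 (56.0% of all tested genes), and for 1 of the 9, *Slc38a1*, when scaled by library size alone. The fitted change was upward for 8 of the 9, with a median of 0.31, although scaling by library size alone, which moved the median of all genes by -0.25, turned *Slc1a5* and *Slc1a4* downward. The median size of change over the 9 was 0.31 against 0.50 over all tested genes.

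With Th1 compared with Th17, 1 of the 9 was called lower in Th1 (2.83% of all tested genes) and 0 were called higher (2.70%). The called gene was again *Slc7a11*, with the same limit from the filter on low counts. The replicates did not overlap for any of the 9, with 7 higher and 2 lower in Th1, beside 66.6% of all tested genes. Scaled by library size alone, which moved the median of all genes by -0.21, *Slc1a5* and *Slc1a4* overlapped and 7 of the 9 did not. At an adjusted p under 0.05 there were 4 of the 9, and the median size of change was 1.23 against 0.60 over all tested genes. DESeq2, the tool of the study, called 4 of the 9 at the same thresholds, adding *Slc7a5*, *Slc7a1* and *Slc38a2* as higher in Th1. Calls over all genes rose too, to 2112 at an adjusted p under 0.05 and to 1829 with DESeq2. The comparisons with Naive share the same Naive libraries, and those with Th17 the same Th17 libraries, so that they are not independent.

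**Figure D1:**
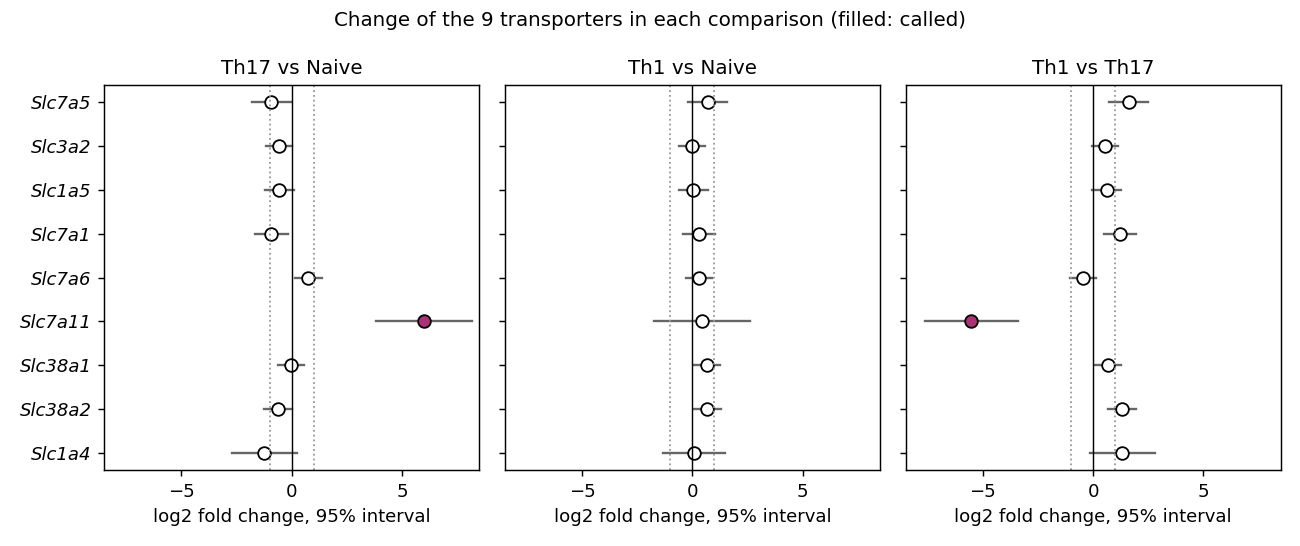
Fitted log2 fold change (x axis) of each of the 9 transporters (y axis) in the 3 comparisons, with 95% intervals as bars; dotted lines mark a log2 fold change of 1 in either direction and filled points are called. *Slc7a11* is the only filled point, at 5.98 in Th17 against Naive and -5.53 in Th1 against Th17, and the other 8 lie between -1.25 and 1.62.

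*Slc7a5* (chr8:121881150-121907694, minus strand, mm10) encodes the leucine carrier LAT1. Its level was 140 and 78.6 CPM in Naive, 72.7 and 42.2 CPM in Th17 and 223 and 130 in Th1. Both Th17 libraries lay below both Naive libraries, both Th1 libraries lay above both Th17 libraries, and Th1 overlapped Naive. The log2 fold change was 1.62 ± 0.40 from Th17 to Th1 (95% interval 0.73 to 2.51, adjusted p = 0.025), which did not pass 0.01 in edgeR with cell type as the only term, and passed it in DESeq2 (adjusted p = 0.0019). Leaving out Th17 replicate 2 or Th1 replicate 1 moved the edgeR adjusted p to 0.19 and 0.11. From Naive it was -0.93 ± 0.39 in Th17 (adjusted p = 0.13) and 0.69 ± 0.39 in Th1 (adjusted p = 0.28). In each cell type the deeper replicate 1 held more *Slc7a5*, by 1.78 times in Naive, 1.72 times in Th17 and 1.72 times in Th1, and *Slc1a4* showed the same order with 2.54, 1.95 and 2.05 times. Among all tested genes, 230 of 13607 (1.69%) had replicate 1 over 1.5 times replicate 2 in all 3 cell types.

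*Slc3a2* (chr19:8706882-8723369, minus strand) encodes the CD98 heavy chain that LAT1 needs. It stood at 145 and 131 CPM in Naive, 91.6 and 95.1 CPM in Th17 and 156 and 116 in Th1. The Th17 replicates were the closest of the 3 pairs, and both lay below the 4 other libraries. The change was -0.57 ± 0.26 from Naive to Th17 (adjusted p = 0.16) and 0.55 ± 0.26 from Th17 to Th1 (adjusted p = 0.17), and from Naive to Th1 it was -0.02 ± 0.26 (95% interval -0.60 to 0.56). Per kilobase of exon, *Slc7a5* stood at 0.830 and 0.515 times the level of *Slc3a2* in Naive, 0.682 and 0.381 times in Th17 and 1.23 and 0.961 times in Th1. The ratio was thus highest in the 2 Th1 libraries, and the Naive and Th17 libraries overlapped.

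*Slc7a6* (chr8:106168857-106198706, plus strand) encodes another light chain of CD98, an exchanger of cationic for neutral amino acids. Its values were 37.6 and 50.8 CPM in Naive, 68.9 and 80.7 CPM in Th17 and 54.6 and 53.0 in Th1. Unlike its heavy chain, it had its highest values in both Th17 libraries and its lowest in both Naive libraries, with the 3 cell types not overlapping. Scaled by library size alone, Naive (39.5 and 55.1) and Th1 (51.1 and 45.7) overlapped, and Th17 was still highest. The log2 fold change from Naive to Th17 was 0.76 ± 0.27 (adjusted p = 0.079), and from Th17 to Th1 -0.47 ± 0.27 (adjusted p = 0.24). Neither was called.

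*Slc7a11* (chr3:49892526-50443614, minus strand) encodes another CD98 light chain, the cystine and glutamate antiporter xCT. It was at 0.205 and 0.149 CPM in Naive (14 and 3 counts), 3.55 and 20.5 CPM in Th17 (232 and 362 counts) and 0.356 and 0.0632 CPM in Th1 (23 and 1 counts). The Th17 libraries lay above the other 4 and differed from each other by 5.77 times, with the shallower replicate the higher, and replicate 2 was at the 3 counts read as detected in Naive and below them in Th1. The log2 fold change was 5.98 ± 0.97 in Th17 against Naive (95% interval 3.81 to 8.16, adjusted p = 0.0036) and -5.53 ± 0.94 in Th1 against Th17 (-7.64 to -3.42, adjusted p = 0.0048). From Naive to Th1 it was 0.45 ± 0.97 with an interval of -1.72 to 2.63. Without Th17 replicate 2 the change from Naive was 4.25 (adjusted p = 0.023) and that from Th17 to Th1 -3.84 (adjusted p = 0.039), which are no longer called. The call against Naive was also lost without Naive replicate 1 (6.29, adjusted p = 0.022) or Naive replicate 2 (5.82, adjusted p = 0.014), and that between Th1 and Th17 without Th1 replicate 1 (-7.50, adjusted p = 0.012) or Th1 replicate 2 (-5.04, adjusted p = 0.021).

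Marker lists of 5 other kinds of blood cell had higher sums in both Th17 libraries than in the other 4, and 3 of these lists, like that of CD8 T and NK cells, were highest in the replicate with the most *Slc7a11*. The 8 markers of macrophages and dendritic cells found in the files summed to 259 and 970 CPM in Th17 replicates 1 and 2, against 45.6 and 21.3 in Naive and 19.2 and 16.5 in Th1, and all 8 were detected in both Th17 libraries. *Lyz2* (lysozyme) made up most of the sum, at 223 and 762 CPM, while *Itgax* (CD11c) stood at 1.44 and 23.8 CPM and *Csf1r* at 5.34 and 11.7. The 9 mast cell and basophil markers summed to 221 and 462 CPM in Th17 and to 22.4 to 71.9 elsewhere, with none at 0 in Th17. The 6 megakaryocyte and platelet markers summed to 268 and 473 CPM in Th17 and to 4.95 to 74.6 elsewhere, also with none at 0 in Th17. Neutrophil markers, with none of 9 at 0 in Th17, were at like sums in both Th17 replicates. B cell markers summed to 17.4 and 13.4 CPM in Th17, against 10.6 and 6.54 in Naive and 2.49 and 3.29 in Th1. CD8 T and NK cell markers summed to 31.8 and 65.2 CPM in Th17, with 37.5 and 33.7 in Naive and 35.6 and 20.8 in Th1. The part of any of these cells in the *Slc7a11* counts was not tested.

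**Figure D2:**
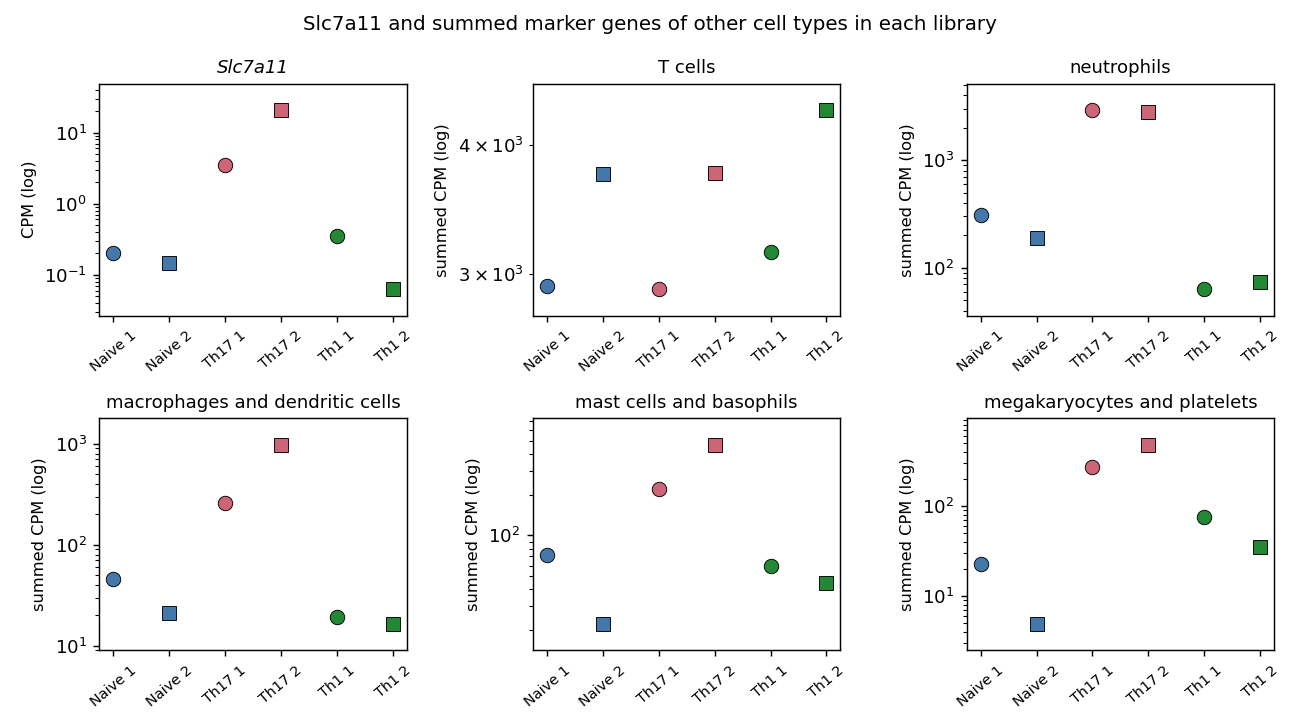
Level of *Slc7a11* and summed level of 5 marker lists (CPM, log axes, each with its own range) in each of the 6 libraries; circles are replicate 1 and squares replicate 2. *Slc7a11* and the macrophage, mast cell and megakaryocyte lists are highest in Th17 replicate 2, while the neutrophil sum is 2895 and 2786 CPM in the 2 Th17 replicates and the T cell sum is between 2902 and 4315 CPM throughout.

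*Slc1a5* (chr7:16781340-16798274, plus strand) encodes the neutral amino acid and glutamine exchanger ASCT2. It was found at 200 and 274 CPM in Naive, 186 and 134 CPM in Th17 and 256 and 233 in Th1. The 2 Th17 libraries were the lowest, although Th17 replicate 1 (203) was just above Th1 replicate 2 (201) when scaled by library size alone, and the Th1 libraries lay within the Naive range. The change was -0.56 ± 0.29 from Naive to Th17 (adjusted p = 0.20), 0.61 ± 0.29 from Th17 to Th1 (adjusted p = 0.17) and 0.05 ± 0.29 from Naive to Th1 (95% interval -0.60 to 0.69), the last of which was -0.20 when scaled by library size alone.

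*Slc1a4* (chr11:20302180-20332713, minus strand), of the same family, encodes ASCT1, which carries alanine, serine, cysteine and threonine. It was scarce, with 2.89 and 1.14 CPM in Naive, 1.10 and 0.566 CPM in Th17 and 2.85 and 1.39 in Th1, and the Th17 libraries rest on 72 and 10 counts. Both Th17 libraries were below the other 4, although Th17 replicate 1 was only just below Naive replicate 2, and was level with Th1 replicate 2 (both 1.20) when scaled by library size alone. The change was -1.25 ± 0.66 from Naive to Th17 (adjusted p = 0.21) and 1.32 ± 0.66 from Th17 to Th1 (adjusted p = 0.19), and was not called.

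*Slc7a1* (chr5:148327410-148399904, minus strand), the arginine and lysine carrier, stood at 76.1 and 81.5 CPM in Naive, 48.5 and 34.7 CPM in Th17 and 125 and 69.4 in Th1. Th17 was lowest in both replicates, and the Th1 replicates lay on either side of Naive. From Th17 to Th1 the log2 fold change was 1.23 ± 0.33 (95% interval 0.49 to 1.96, adjusted p = 0.032), with an adjusted p of 0.0069 in DESeq2. Leaving out 1 library moved the edgeR adjusted p up to 0.24 (without Th17 replicate 2). From Naive to Th17 the change was -0.92 ± 0.33 (adjusted p = 0.081).

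*Slc38a1* (chr15:96571418-96642913, minus strand) and *Slc38a2* (chr15:96687392-96699730, minus strand) lie next to each other in the mouse genome and encode the sodium-coupled carriers SNAT1 and SNAT2. *Slc38a2* was at 148 and 205 CPM in Naive, 119 and 109 CPM in Th17 and 312 and 252 in Th1. The 3 cell types did not overlap, with Th17 lowest and Th1 highest, whereas Naive (155 and 223) and Th1 (292 and 217) overlapped when scaled by library size alone. Its log2 fold change from Th17 to Th1 was 1.31 ± 0.28 (95% interval 0.68 to 1.94, adjusted p = 0.014), just short of the threshold, and in DESeq2 its adjusted p was 2.3e-04. From Naive it was -0.63 ± 0.28 in Th17 (adjusted p = 0.15) and 0.68 ± 0.28 in Th1 (adjusted p = 0.13). *Slc38a1* stood at 131 and 146 CPM in Naive, 157 and 115 CPM in Th17 and 233 and 203 in Th1. Both Th1 libraries were above the other 4, while Naive lay within the Th17 range. The change from Naive was 0.66 ± 0.27 in Th1 (adjusted p = 0.13) and -0.03 ± 0.27 in Th17 (95% interval -0.63 to 0.57), and from Th17 to Th1 it was 0.68 ± 0.27 (adjusted p = 0.11).

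**Figure D3:**
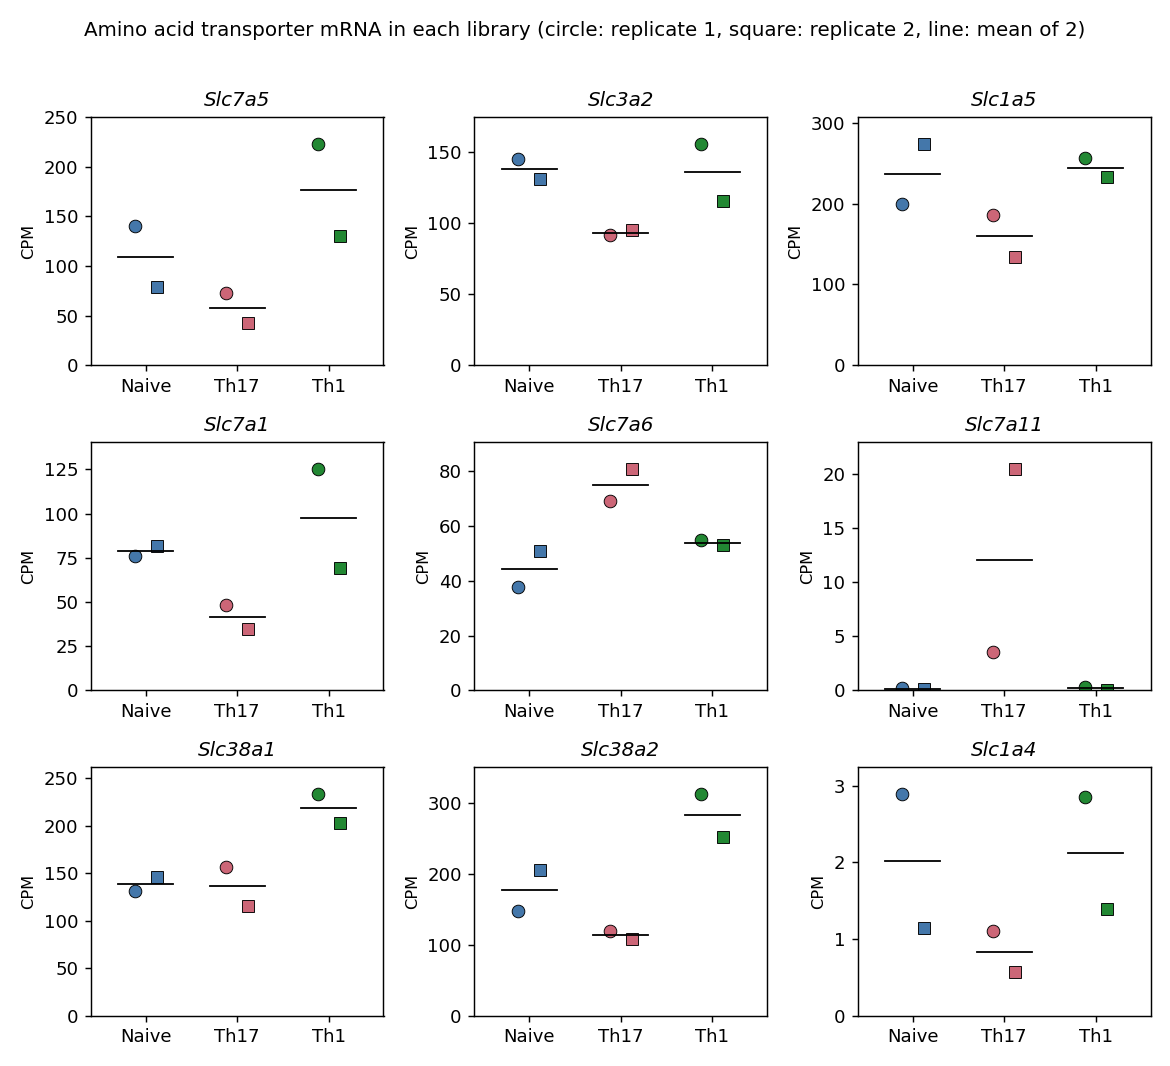
Level of each transporter (CPM, linear axes starting at 0, each with its own range) in Naive, Th17 and Th1; circles are replicate 1, squares replicate 2 and the line is the mean of the 2. In 7 of the panels both Th1 points lie above both Th17 points on this TMM-scaled level, and *Slc7a6* and *Slc7a11* have Th17 highest, the latter at 3.55 and 20.5 CPM.

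Levels of different genes were compared per kilobase of annotated exon. *Slc1a5* was the most abundant of the 9 in each cell type, at 85.7 ± 19.1 CPM per kb in Naive, 58.0 ± 13.2 in Th17 and 88.5 ± 5.77 in Th1 (SD, n = 2), and did not overlap the next gene in any. In Naive it was followed by *Slc3a2* (45.7), *Slc38a2* (37.8) and *Slc7a5* (31.1), of which each overlapped the next, and then by *Slc38a1* (12.9), *Slc7a6* (11.8) and *Slc7a1* (10.98), which also overlapped. In Th17 the order was *Slc3a2* (30.9), *Slc38a2* (24.4), *Slc7a6* (19.96), *Slc7a5* (16.3), *Slc38a1* (12.7) and *Slc7a1* (5.80), with overlap between *Slc7a6* and *Slc7a5* and between *Slc7a5* and *Slc38a1*. In Th1 *Slc38a2* (60.5), *Slc7a5* (50.2) and *Slc3a2* (45.0) overlapped in turn, *Slc38a1* (20.3) stood apart, and *Slc7a6* (14.4) and *Slc7a1* (13.6) overlapped. *Slc7a5* thus ranked 4 of the 9 in Naive, 5 in Th17 and 3 in Th1. *Slc1a4* and *Slc7a11* were the lowest 2 in each cell type, with *Slc7a11* last in Naive (0.0180) and Th1 (0.0213) and *Slc1a4* last in Th17 (0.212, against 1.22 for *Slc7a11*). The summed level of the 9, in CPM, was 881 and 969 in Naive, 748 and 632 CPM in Th17 and 1365 and 1058 in Th1, so that the 3 cell types did not overlap. Scaled by library size alone, the sums were 926 and 1051 in Naive, 816 and 630 CPM in Th17 and 1277 and 912 in Th1, so that Th1 overlapped Naive and Th17 was lowest.

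**Figure D4:**
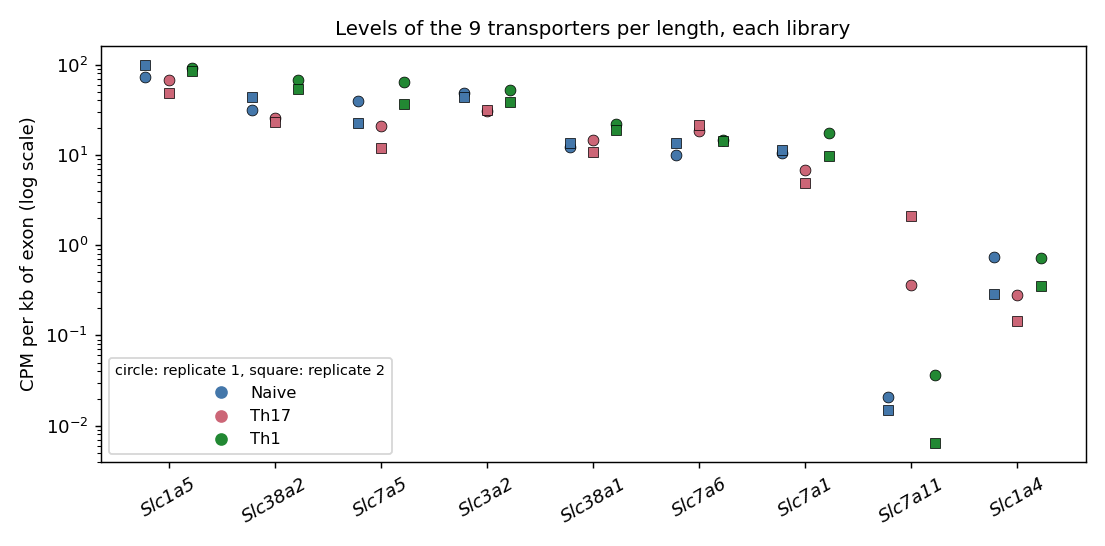
Level of the 9 transporters per kilobase of exon (log axis) in each library, ordered by the highest of the 3 cell type means; colours give the cell type, circles replicate 1 and squares replicate 2. The 7 genes at the left lie between 4.84 and 99.3 CPM per kb, and *Slc7a11* and *Slc1a4* at the right lie at 2.08 or lower.

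For *Slc7a5* and *Slc7a11*, the genes with the most similar pattern over the 6 libraries were found by the distance between centred log2 CPM profiles. Nearest to *Slc7a5* were *H2afx* (distance 0.235), which encodes a histone variant, *Lrp11* (0.516) and *Hist1h2bn* (0.529), where the median distance over tested genes was 2.25. *H2afx* stood at 218 and 106 CPM in Naive, 97.2 and 66.3 CPM in Th17 and 341 and 194 in Th1, so it too was higher in replicate 1 in each cell type. *Hist1h2bn* was at most 0.402 CPM in each library and belongs to a family of near-identical copies. Nearest to *Slc7a11* were *Cxcl2* (1.04), which encodes a neutrophil-attracting chemokine, *Slc6a12* (1.07) and *Cd300ld* (1.37), with a median distance of 6.62. *Cxcl2* was at 2.36 and 8.77 CPM in Th17 and at most 0.132 in the other 4 libraries.

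The other genes of amino acid transport and use were read from lists chosen by function. Of 31 other plasma membrane transporters, 15 passed the filter. In Th17 against Naive 0 were called higher and 3 lower (*Slc38a5*, *Slc43a1* and *Slc16a10*), in Th1 against Naive 1 higher and 3 lower, and between Th1 and Th17 0 (the last with a list median of -0.41 against -0.03 over all genes, or -0.31 when a gene too scarce for a fitted fold was given its bound). *Slc38a5*, a glutamine carrier, was at 37.9 and 4.21 CPM in Naive, 0.0153 and 0 CPM in Th17 and 0.0464 and 0.0632 in Th1. It was called lower in both, but had passed the filter on low counts only because of its Naive libraries. With 1 count in all of Th17, the ratio of Naive to Th17 was 3144 (counting interval 564 to 124232) for Naive replicate 1 and 349 (61.1 to 13964) for Naive replicate 2. *Slc43a1*, a carrier of large neutral amino acids, stood at 18.7 and 6.24 CPM in Naive, 1.84 and 1.02 CPM in Th17 and 0.449 and 0.569 in Th1, with a log2 fold change of -3.10 ± 0.60 in Th17 (adjusted p = 0.0088) and -4.65 ± 0.67 in Th1 (adjusted p = 0.0016). Both genes were higher in Naive replicate 1, as were the erythroid markers (925 and 149 CPM summed), whose part in these calls was not tested. *Slc16a10*, an aromatic amino acid carrier, was at 39.9 and 23.9 CPM in Naive, 5.74 and 5.66 CPM in Th17 and 2.78 and 1.14 in Th1, and fell by 2.49 ± 0.46 in Th17 (adjusted p = 0.0066). *Slc1a1*, a glutamate carrier, had 0 counts in Naive and stood at 1.10 and 1.90 CPM in Th1, at least 15.6-fold higher. It passed the filter on low counts only because of its Th1 libraries.

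Of 21 listed symbols of lysosomal and other intracellular transporters, *Pqlc2* was listed also under its newer symbol *Slc66a1*. Of the list, 18 passed the filter and 1 was called in each comparison, the peptide and histidine carrier *Slc15a3*. *Slc15a3* was at 0.719 and 0.297 CPM in Naive, 45.6 and 32.9 CPM in Th17 and 5.12 and 2.21 in Th1. It rose by 6.14 ± 0.59 in Th17 (adjusted p = 2.2e-04) and by 2.76 ± 0.53 in Th1 (adjusted p = 0.0064) on the log2 scale. From Th17 to Th1 the change was -3.38 ± 0.50 (adjusted p = 0.0024). As with *Slc7a11*, all Th17 libraries were above the rest, but here the 2 Th17 replicates were close. The neutrophil marker sums (2895 and 2786 CPM in Th17) were likewise high and close in both, and their part in the *Slc15a3* counts was not tested. The call in Th1 against Naive was lost with library size alone, with the 4 compared libraries alone, and without Naive replicate 1, Naive replicate 2, Th17 replicate 1 or Th1 replicate 1.

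Of 37 listed symbols of amino acid sensing upstream of mTORC1, 34 were tested. The list held *Castor1* and *Castor2* also under their older symbols *Gatsl3* and *Gatsl2*. In Th17 against Naive 1 was called higher, in Th1 against Naive 2 were, between Th1 and Th17 1 was higher in Th1, and 0 were called lower in the 3 comparisons. *Rragd*, one of the Rag GTPases that bring mTORC1 to the lysosome, stood at 3.54 and 4.80 CPM in Naive, 22.03 and 20.8 CPM in Th17 and 13.1 and 14.7 in Th1, and rose by 2.37 ± 0.34 in Th17 (adjusted p = 0.0019) and 1.74 ± 0.34 in Th1 (adjusted p = 0.0068). *Gatsl3*, now *Castor1*, an arginine sensor, was at 14.7 and 19.4 CPM in Naive, 26.5 and 23.8 CPM in Th17 and 60.8 and 79.4 in Th1. It rose by 2.04 ± 0.30 from Naive to Th1 (adjusted p = 0.0017) and by 1.48 ± 0.29 from Th17 to Th1 (adjusted p = 0.0094).

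All 17 genes of the amino acid response and Myc list were tested, with 2 called higher in Th17 against Naive, 2 higher and 1 lower in Th1 against Naive, and 1 higher in Th1 against Th17. *Myc*, a regulator of transporter genes in activated T cells, was at 173 and 137 CPM in Naive, 84.2 and 74.7 CPM in Th17 and 272 and 529 in Th1, and rose by 2.33 ± 0.35 from Th17 to Th1 (adjusted p = 0.0027). *Atf3*, a stress-induced factor, rose in Th17 (3.23 and 9.96 CPM, 6.79 ± 0.86 on the log2 scale, adjusted p = 9.3e-04) and in Th1 (3.33 and 1.77 CPM, 5.46 ± 0.84, adjusted p = 0.0023) from 0.0587 and 0.0495 CPM in Naive. It passed the filter on low counts only because of its Th17 and Th1 libraries. *Nupr1*, another stress-induced gene, rose in Th17 by 3.55 ± 0.70 (adjusted p = 0.0097), and the Atf4 target *Trib3* rose in Th1 by 1.88 ± 0.37 (adjusted p = 0.0073). *Trib3* stood at 4.15 and 4.70 CPM in Naive, 14.0 and 16.1 CPM in Th17 and 12.5 and 20.1 in Th1. Its change from Naive to Th17 was 1.76 ± 0.37 (adjusted p = 0.012), just short of the threshold. From Th17 to Th1 it was 0.11 ± 0.35 (adjusted p = 0.84). *Ddit4*, an inhibitor of mTORC1 signalling, fell by 1.71 ± 0.31 in Th1 (adjusted p = 0.0048), from 571 and 462 CPM in Naive to 184 and 131.

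Of 30 enzymes that act on the amino acids carried, 27 were tested, with 2 called higher in Th17 against Naive, 1 higher in Th1 against Naive and 1 lower in Th1 against Th17. *Arg2*, an arginase, was at 0.0440 and 0.0495 CPM in Naive, 1.45 and 1.87 CPM in Th17 and 0.0619 and 0.126 in Th1, and changed by 5.09 ± 0.83 in Th17 against Naive (adjusted p = 0.0036) and -4.30 ± 0.79 in Th1 against Th17 (adjusted p = 0.0069). *Ido1*, which breaks down tryptophan, had 0 counts in Naive and was at least 17.2-fold higher in Th17 (2.30 and 1.02 CPM). *Nos2*, which makes nitric oxide from arginine, had 0 counts in Naive and reached 1.08 and 0.695 CPM in Th1, at least 9.23-fold higher. In Th17 *Nos2* was at 0.352 and 0.962 CPM, which overlapped Th1, and it was not called against Naive (adjusted p = 0.011). From Th17 to Th1 its change was 0.55 ± 0.76 (adjusted p = 0.64). The 3 enzymes were at 2.30 CPM or lower in each library. As with *Slc7a11*, *Arg2* and *Ido1* passed the filter on low counts only because of their Th17 libraries. *Nos2* passed it only because of its Th17 and Th1 libraries. The part of the other blood cells, whose marker sums were higher in Th17, in the Th17 levels of *Arg2*, *Ido1*, *Nos2* and *Atf3* was not tested. With 1 library left out at a time, calls in Th17 against Naive ranged from 1 to 3 for the other plasma membrane transporters, 0 to 1 for amino acid sensing, 1 to 2 for the amino acid response and 0 to 2 for the enzymes, and stayed at 1 for the intracellular transporters. In Th1 against Naive they ranged from 2 to 4, 0 to 1, 0 to 3, 0 to 2 and, for the intracellular transporters, 0 to 1. In Th1 against Th17 each of the 5 lists ranged from 0 to 1. The sensing calls in Th1 against Naive fell from 2 to 1 without any of 5 libraries and to 0 without Naive replicate 1, which also left 0 of the response calls.

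**Figure D5:**
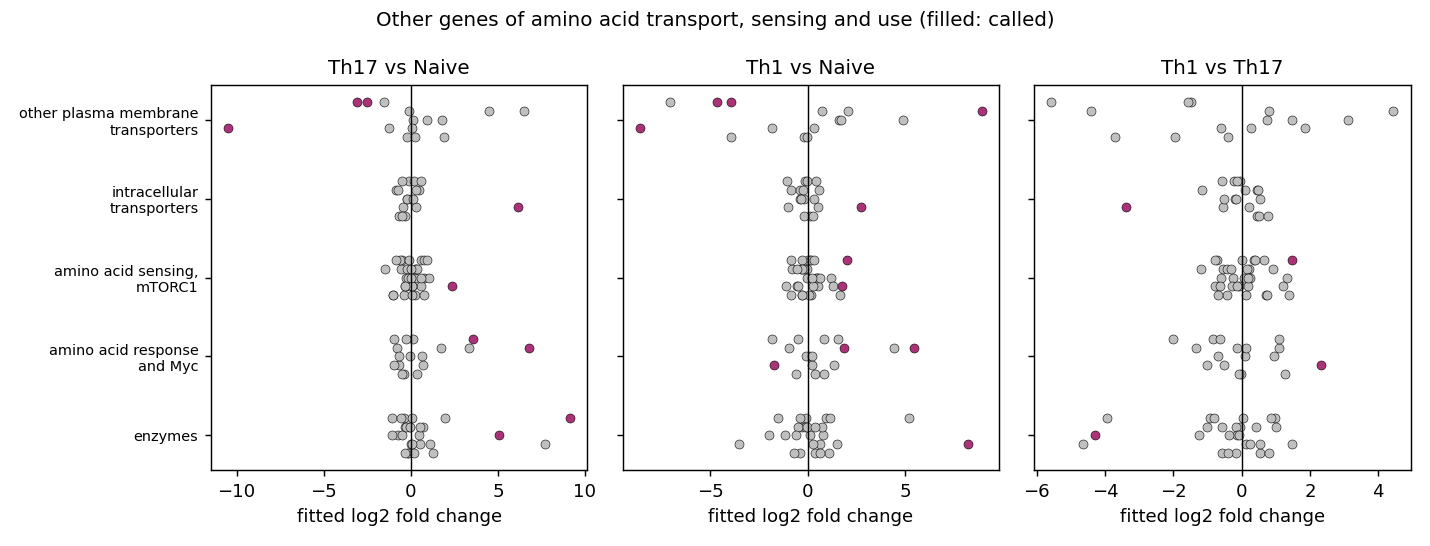
Fitted log2 fold change (x axis) of the tested genes of 5 lists (y axis, points staggered) in the 3 comparisons; filled points are called. Most points lie near 0, and 3, 1, 1, 2 and 2 points are filled in Th17 against Naive from the top list to the bottom; folds against groups at 0 counts depend on the prior count.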

How the data were processed

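RNA-Seq libraries of Naive, Th17 and Th1 cells were analysed, 2 per cell type. Per the labels, polyadenylated RNA was reverse transcribed by Smart-seq2, a protocol that marks no strand. The authors mapped paired reads to mm10 with HISAT2 2.2.1 and counted them per gene with HTSeq 0.13.5. In the methods, HTSeq ran with default parameters after duplicate removal, whereas the supplementary code names a reverse-strand option and shows no duplicate removal. The deposited values are raw counts per gene, 1 table per library. No member shares exons with another gene in GENCODE vM21 basic.

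Counts were tested in R 4.3.3 with edgeR 4.0.16 (filterByExpr, TMM, quasi-likelihood, all 6 libraries, cell type as the only term). SE was the absolute log2 fold change over the root of F. log2 CPM for pattern distances used a prior count of 2. The depth ranged from 17742158 to 69080017 counts, and ratios and floors (3 counts) cover counting error only. The scripts were tested on simulated data. With changes planted in Th17, 86 of 100 log2 fold changes of 3 were called in the right direction against Naive. Of those of 1.5, 26 of 100 were, and 3 of 13407 unchanged genes were called. Alternatives were DESeq2 1.42.0, other scalings, filters and thresholds, a replicate block, thinning, and leaving out each library.

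The 9 members, the lists and the tests were chosen with earlier results of these data known. Named were the members, at most 3 called genes with the largest change per list and comparison (over 3 counts in at least 2 libraries), and the 3 nearest patterns to *Slc7a5* and *Slc7a11*. Coordinates and exon lengths are from GENCODE vM21 on GRCm38. ATAC-Seq and Hi-C data were not analysed here.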

Additional observations from a re-analysis of the deposited data

Results flagged for a closer look

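The change of *Slc7a11* from Naive differed between the T helper cells. It was 5.98 ± 0.97 on the log2 scale in Th17 and 0.45 ± 0.97 in Th1, and the difference, Th1 minus Th17, was -5.53 ± 0.94 (edgeR's quasi-likelihood test, adjusted p = 0.0048). Because Naive is shared, this difference is the comparison of Th1 with Th17 itself. It ranged from -7.50 to -3.84 when 1 library was left out, and its adjusted p then reached 0.039.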

How the results depend on the processing

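Of 401 values of the 9 transporters under the alternatives, 368 kept their direction and side of the threshold, 12 became calls, 6 lost a call and 15 reversed. Transporters called in Th17 against Naive were 1, and 0 with at least 10 counts in every library, where *Slc7a11* was not tested, and 0 to 1 with 1 library left out. In Th1 against Naive 0 were called throughout. In Th1 against Th17, 1 was called, but 4 with DESeq2, without a filter and at an adjusted p under 0.05, 2 with the 4 compared libraries alone, 0 with at least 10 counts, and 0 to 2 with 1 library left out.

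Genes called numbered 739, 1014 and 752 in Th17 against Naive, Th1 against Naive and Th1 against Th17. With DESeq2 they were 1741, 1935 and 1829, without a filter 2154, 2259 and 2232, with at least 10 counts 343, 674 and 411, at an adjusted p under 0.05 2063, 2164 and 2112, and with 1 library left out 319 to 885, 516 to 939 and 266 to 1016. Library size alone shifted the median of all genes by -0.25 in Th1 against Naive and -0.21 in Th1 against Th17, where the calls were then 202 higher and 352 lower instead of 367 and 385.

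The labels number the replicates but do not say whether same-numbered samples were paired. The deviations of same-numbered libraries correlated at -0.23 (Naive and Th17), 0.17 (Naive and Th1) and 0.077 (Th17 and Th1). These values are over all tested genes and cannot show whether fewer genes shared a shift. *Slc7a5* and *Slc1a4* were higher in replicate 1 in each cell type. With the replicate number as a block, 1035, 1402 and 1041 genes were called and 1, 0 and 2 transporters, *Slc7a5* being added in Th1 against Th17 (1.62, adjusted p = 0.0020). In Naive and Th17 alone, the block gave 1307 genes, and the crossed numbers, an alternative chosen after seeing the data, 1499.

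Reversals touched only values that were not called. *Slc38a1* in Th17 against Naive became 0.023 with at least 10 counts and 0.015 with 4 libraries, and ranged from -0.26 to 0.18 with 1 library left out. In Th1 against Naive, library size alone gave -0.20 for *Slc1a5* and -0.15 for *Slc1a4*, and thinning gave -0.19 for *Slc1a4*. With 1 library left out, the ranges were -0.21 to 0.18 for *Slc3a2*, -0.17 to 0.29 for *Slc1a5*, -0.14 to 0.68 for *Slc7a1*, -1.46 to 0.93 for *Slc7a11* and -0.51 to 0.92 for *Slc1a4*. A lone library left in a group is assumed to vary like the other groups. The cause of these shifts was not tested. Depth limits *Slc7a11* and *Slc1a4*, with 1 to 23 counts in several libraries.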

Other observations

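*Slc7a2*, a cationic amino acid carrier chosen after its values were seen, was like *Slc7a11* highest in both Th17 libraries. It was not among the 3 genes nearest to *Slc7a11* in pattern, and passed the filter on low counts only because of its Th17 libraries. It was at 0.459 and 7.69 CPM in Th17, 0.0587 and 0 in Naive and 0.217 and 0.126 in Th1, and was not called (adjusted p = 0.016 in Th17 against Naive and 0.039 in Th1 against Th17). *Atf4* itself did not differ detectably between Th17 and Naive at the RNA level, with a log2 fold change of -0.03 ± 0.25 (95% interval -0.58 to 0.51), nor between Th1 and Naive, with 0.06 ± 0.25 (-0.49 to 0.61).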
